A study of Mus musculus with 16 samples.

Results

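The genes described here are 10 mouse genes of NF-kappaB feedback, alarmin and colony stimulating factor signalling, out of 27179 gene identifiers in the count table. They are the NF-kappaB subunits Nfkb1, Nfkb2 and Relb, the feedback inhibitors Nfkbia and Tnfaip3, the interleukin-1 family genes Il33, Il18 and Il1rn, and the colony stimulating factors Csf1 and Csf2. They were chosen by symbol with earlier results of these data known, matched through their Entrez identifiers, and all 10 passed the filter on low counts. The libraries hold RNA of alveolar type 2 (AT2) cells, which make surfactant in the lung, sorted from control mice and from mice with a mutant Sftpc gene, which encodes surfactant protein C. From each animal a CD44- and a CD44+ fraction was taken, CD44 being a cell surface receptor for hyaluronan. The sort kept live Epcam+ CD200hi cells and left out those with CD45, CD31 or CD104 on their surface. The 16 libraries form 4 groups of 4: the CD44- and CD44+ fractions of R26 animals 1, 2, 7 and 8 (R26 CD44-, R26 CD44+), and those of OG animals 3, 5, 6 and 7 (OG CD44-, OG CD44+). All 16 samples carry the same treatment label, OG TMX, controls included. The genotypes in the labels are SP-C WT and SP-C Mutant, and reading R26 as the control and OG as the mutant is an inference, because the labels tie neither prefix to a genotype. The CD44 comparisons within R26 and within OG do not rest on it. The mutation, the driver of recombination, the strain, the age and the sex were not given in the sources used here.

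NF-kappaB is a family of dimeric transcription factors held in the cytoplasm by inhibitor proteins until a receptor for TNF, interleukin-1 or a Toll-like receptor ligand activates the IkappaB kinases. The factor then switches on genes for its own inhibitors, among them IkappaB-alpha (Nfkbia) and the ubiquitin-editing enzyme A20 (Tnfaip3), which close a negative feedback loop. Nfkb1 encodes p105 and its product p50 of the canonical pathway, whereas Nfkb2 (p100 and p52) and Relb form the non-canonical pathway. In the mouse lung AT2 cells are a main source of the alarmin interleukin-33 and of GM-CSF (Csf2), which alveolar macrophages need to mature. M-CSF (Csf1) supports monocytes and macrophages, interleukin-18 is released after caspase-1 cleavage, and Il1rn encodes the antagonist of the interleukin-1 receptor.

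The promoters of Nfkbia, Tnfaip3, Csf1 and Nfkb2 are shown because each holds a match to the consensus kappaB element, the DNA sequence that NF-kappaB binds, and because the first 3 of these genes moved together between the fractions of OG animals. The sequences are from RefSeq in build GRCm38.p6, which is mm10, run 5′ to 3′ on the strand of the gene, and carry each 10-base match on either strand in capitals.
Nfkbia, chr12:55492648-55492847, minus strand: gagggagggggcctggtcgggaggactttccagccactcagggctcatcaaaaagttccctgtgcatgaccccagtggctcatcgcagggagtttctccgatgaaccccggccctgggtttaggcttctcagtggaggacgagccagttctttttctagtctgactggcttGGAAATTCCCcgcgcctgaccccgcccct
Tnfaip3, chr10:19015411-19015540, minus strand: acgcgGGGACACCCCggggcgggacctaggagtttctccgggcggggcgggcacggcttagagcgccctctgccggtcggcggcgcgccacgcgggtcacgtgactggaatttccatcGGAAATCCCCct
Csf1, chr3:107760470-107760669, minus strand: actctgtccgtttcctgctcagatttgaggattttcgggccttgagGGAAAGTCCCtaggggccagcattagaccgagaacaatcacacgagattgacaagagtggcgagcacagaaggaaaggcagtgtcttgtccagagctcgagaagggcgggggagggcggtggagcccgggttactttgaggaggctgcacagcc
Nfkb2, chr19:46304685-46304714, plus strand: acgggatcgtcacGGGAATTCCCCccctcg
The Nfkbia match began 29 bases before the annotated start, the Tnfaip3 matches 125 and 12 bases before it, and the Csf1 match 154 bases before it. The Nfkb2 stretch holds overlapping matches that begin 39 and 38 bases before one of its starts, inside an annotated exon of an alternative transcript. Windows of 250 bases before to 50 bases after a start were matched for 8 of the 10 genes, all but Nfkb1 and Relb, and 4 of the 8 held a match. Among the 11498 tested genes with a window, 12.3% held a match in any of their windows, as did 8.46% of all 32851 windows. No match was found in the windows of Il33, Il18, Il1rn and Csf2. Csf2 nevertheless rose between OG fractions with Nfkbia, Tnfaip3 and Csf1, whereas Nfkb2 was not called there. Further Nfkb2 matches lie outside the stretch shown. A match is a string of letters and no measurement of binding.

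Library totals ran from 9022471 to 21363816 counts, and 15516 genes were tested. AT2 markers were present in all groups, with a summed level of 171879 to 201378 counts per 1000000 of the TMM-scaled library (CPM) in R26 CD44- and 22949 to 27322 CPM in OG CD44+. Sftpc, the mutated gene, stood at 79592 ± 7872 CPM in R26 CD44- and 11684 ± 432 CPM in OG CD44- (SD, n = 4 each). Markers of other cells moved with the sorts. The 20 leukocyte markers summed to 79.1 to 88.2 CPM in R26 CD44-, 267 to 442 in R26 CD44+, 124 to 133 in OG CD44- and 267 to 542 in OG CD44+. The 14 fibroblast and mural markers summed to 124 to 149.6, 813 to 1644, 757 to 827 and 1683 to 2976 CPM in the same order. Of the 15 leukocyte markers tested, 9 were higher and 2 lower in CD44+ than in CD44- cells of OG animals and 11 higher and 0 lower in R26 animals, and all 14 fibroblast and mural markers were higher in both. In OG against R26 CD44- cells 12 of these 15 leukocyte markers were higher and 0 lower (median log2 2.78), where 39.4% of all genes were called higher. In CD44+ cells 4 were higher and 3 lower (median 0.30). The sums hide much of this, as Cd14 alone averaged 59.3 CPM in R26 CD44- and 75.4 CPM in OG CD44- cells. Ptprc, the gene of the CD45 antigen that the sort excludes, averaged 0.164, 7.94, 1.21 and 5.14 CPM, and Marco was at 0 in all R26 libraries. The OG CD44+ library of animal 3 had the highest leukocyte and fibroblast sums of its group, and for Nfkbia, Tnfaip3 and Il33, in which it stood apart, the comparisons that use it are also given without both libraries of that animal. All levels are of bulk RNA, in which fewer cells of a type and less RNA per cell cannot be told apart.

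**Figure D1:**
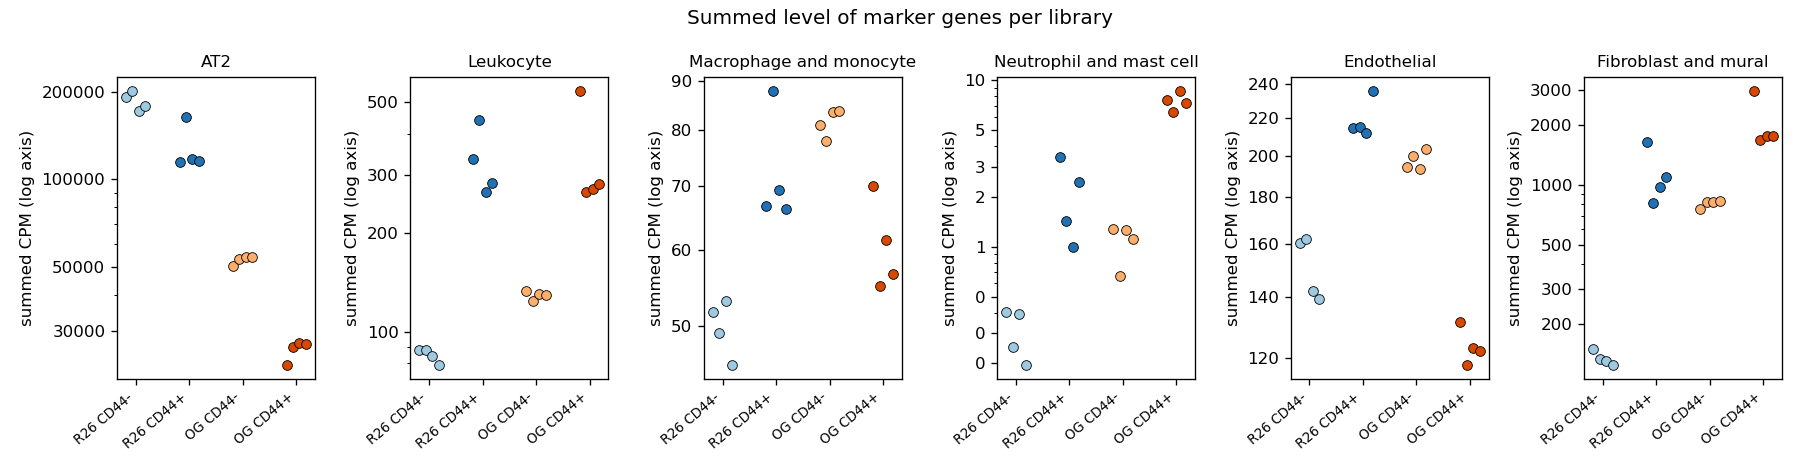
Summed CPM of the marker lists in each library (log axis), by group. Leukocyte and fibroblast sums were higher in every CD44+ library than in every CD44- library of the same prefix, and AT2 sums were lower.

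In OG animals 4 of the 10 genes were higher in CD44+ than in CD44- cells (Nfkbia, Tnfaip3, Csf1 and Csf2), 2 were lower (Il33 and Nfkb1), and 4 did not pass the test. A gene was called at an adjusted p under 0.05 in edgeR's quasi-likelihood test over all genes. By that rule 50.4% of all tested genes were called in this comparison, 22.3% higher and 28.0% lower, so the number of calls is near the background and the sizes of the changes are what follows. The median log2 difference was 0.78 over the 10 genes and -0.06 over all genes. The OG fractions did not overlap for 7 of the 10, against 51.0% of all genes, and the R26 fractions for 4 of the 10, against 28.8%. In R26 animals 5 were higher in CD44+ cells (Nfkb2, Relb, Tnfaip3, Il1rn and Csf1) and 1 was lower (Il33), where 37.1% of all genes were called, 21.6% higher and 15.4% lower. The median was 0.39 over the 10 and -0.02 over all.

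Between prefixes, 3 of the 10 were higher in OG than in R26 CD44- cells (Nfkb2, Relb and Il1rn) and 6 were lower (Nfkb1, Nfkbia, Tnfaip3, Il33, Csf1 and Csf2), against 69.0% of all genes called, 39.4% higher and 29.6% lower. The groups did not overlap for any of the 10 in that comparison, which held for 67.6% of all genes. The median was -0.62 over the 10 and 0.12 over all genes, and the latter became 0.00 with upper quartile scaling, so changes there are read relative to that shift. In CD44+ cells 3 were higher in OG (Relb, Il18 and Il1rn) and 4 were lower (Nfkb1, Nfkbia, Il33 and Csf2), against 69.1% of all genes called, 34.5% higher and 34.6% lower. The groups did not overlap for 3 of the 10, against 57.7% of all genes, and both medians were -0.01. The difference between the CD44 effects of OG and R26 animals, the interaction, passed for 7 of the 10, against 24.7% of all genes, 6.57% higher and 18.1% lower. It was higher for Nfkbia, Csf1 and Csf2 and lower for Nfkb2, Relb, Il33 and Il1rn. These comparisons share groups, so they are given side by side for each gene and not set against each other. The 10 genes were chosen with earlier results of these data known, so their shares and medians beside those of all genes are descriptions only.

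**Figure D2:**
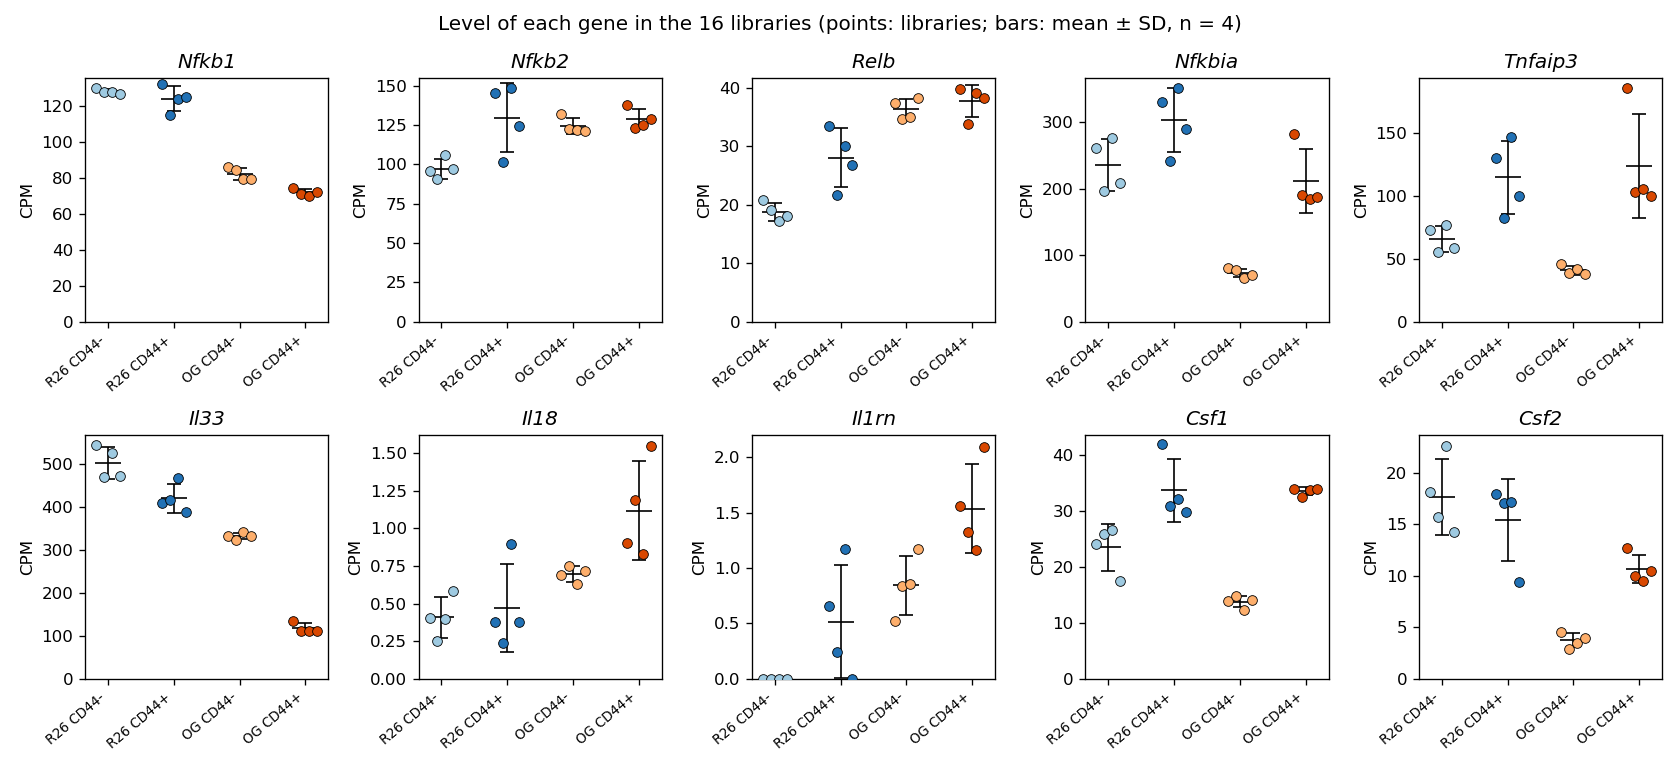
Level of each gene in the 16 libraries in CPM (linear axis from 0), by group, with points for libraries and bars for mean and SD (n = 4). Nfkbia, Tnfaip3, Csf1 and Csf2 are lowest in OG CD44-, and Il33 is lowest in OG CD44+.

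Nfkb1, the canonical subunit gene (Entrez 18033, chr3:135584655-135691969, minus strand), was lower in both OG fractions than in both R26 fractions. R26 animals 1, 2, 7 and 8 had 130.0, 128, 128 and 127 CPM in CD44- cells and 132, 115, 124 and 125 CPM in CD44+ cells. OG animals 3, 5, 6 and 7 had 85.9, 84.3, 79.5 and 79.2 CPM in CD44- cells and 74.3, 71.2, 69.8 and 72.3 CPM in CD44+ cells. No OG library reached any R26 library, and within OG the CD44+ libraries lay below all CD44- libraries. The log2 fold change of OG against R26 was -0.64 ± 0.05 in CD44- cells (SE, adjusted p = 1.47e-11) and -0.79 ± 0.05 in CD44+ cells (adjusted p = 5.19e-13). Between OG fractions it was -0.19 ± 0.05 (adjusted p = 0.00181), a small change that was -0.11 and not called with upper quartile scaling (adjusted p = 0.0647). Between R26 fractions it was -0.05 ± 0.05 (adjusted p = 0.463). That value was called without R26 CD44+ animal 1 (-0.15, adjusted p = 0.0199) or animal 8 (-0.13, adjusted p = 0.0490).

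Relb (Entrez 19698, chr7:19606217-19629438, minus strand), the non-canonical partner subunit, went the other way. In R26 animals 1, 2, 7 and 8 it had 20.8, 19.1, 17.2 and 18 CPM in CD44- cells and 33.5, 21.7, 30.2 and 26.8 CPM in CD44+ cells. In OG animals 3, 5, 6 and 7 it had 37.5, 34.7, 35.1 and 38.3 CPM in CD44- cells and 39.9, 33.8, 39.1 and 38.3 CPM in CD44+ cells. R26 CD44- was the lowest group, R26 CD44+ was intermediate, and both OG fractions lay above every R26 library while overlapping each other. Relb was 1.94-fold higher in OG than in R26 CD44- cells (log2 0.96 ± 0.10, adjusted p = 3.44e-09) and 1.34-fold higher in CD44+ cells (log2 0.42 ± 0.10, adjusted p = 4.14e-04). It rose from CD44- to CD44+ in R26 animals (log2 0.59 ± 0.10, adjusted p = 4.67e-05), but in OG animals the difference was 0.05 ± 0.09 with a 95% interval of -0.12 to 0.23. The interaction was -0.54 ± 0.13 (adjusted p = 0.00478) and was not called without R26 CD44- animal 7 (-0.38, adjusted p = 0.0562) or R26 CD44+ animal 1 (-0.33, adjusted p = 0.0662).

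Nfkb2 (Entrez 18034, chr19:46300994-46312400, plus strand), which encodes the RelB-binding precursor p100, was likewise lowest in R26 CD44-, with smaller steps. Its values in R26 animals 1, 2, 7 and 8 were 96.0, 90.4, 106 and 96.8 CPM in CD44- cells and 145, 101, 148 and 124 CPM in CD44+ cells. In OG animals 3, 5, 6 and 7 they were 132, 123, 122 and 121 CPM in CD44- cells and 138, 123, 125 and 128 CPM in CD44+ cells. R26 CD44- lay below both OG fractions, whereas the other 3 groups overlapped. The R26 fractions overlapped too, as R26 CD44+ animal 2, at 101 CPM, lay below R26 CD44- animal 7, at 106 CPM. The gain from CD44- to CD44+ in R26 animals was 0.42 ± 0.09 on the log2 scale (adjusted p = 8.26e-04), and 0.27 without R26 CD44+ animal 7 (adjusted p = 0.0149). OG CD44- exceeded R26 CD44- by 0.35 ± 0.09 (adjusted p = 0.00126), which fell to 0.21 and was not called without R26 CD44- animal 2 (adjusted p = 0.0599). The interaction of -0.37 ± 0.12 (adjusted p = 0.0326) was lost under 15 of 25 alternatives, with adjusted p values up to 0.301. The locus overlaps the antisense gene Psd, and the strand setting of the counting was not given in the sources used here.

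Of the other Rel-family genes, Rela, the main activating subunit, averaged 93.4 and 88.4 CPM in R26 CD44- and CD44+ cells and 93.4 and 93.1 CPM in OG CD44- and CD44+ cells, and was called in none of the 5 comparisons. Its log2 fold changes were between -0.08 and 0.07. Rel, the c-Rel subunit, averaged 13.7, 18.7, 9.61 and 11.0 CPM in the same order and was lower in OG in both fractions (log2 -0.51 ± 0.12 in CD44- and -0.77 ± 0.12 in CD44+ cells, adjusted p = 5.19e-04 and 3.90e-06). Per kilobase of the longest annotated transcript, Nfkb1 and Rela stood at 31.1 and 34.4 CPM in R26 CD44- cells, Nfkb2 at 25.3, Relb at 8.50 and Rel at 1.84. In OG CD44+ cells Nfkb1 had come down to 17.5 CPM per kilobase, about the level of Relb at 17.1, while Nfkb2 was at 33.4 and Rela at 34.3.

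Nfkbia (Entrez 18035, chr12:55489409-55492647, minus strand), the gene of IkappaB-alpha, was lowest in OG CD44- cells and higher in CD44+ cells of the same animals. R26 animals 1, 2, 7 and 8 had 261, 197, 277 and 209.5 CPM in CD44- cells and 331, 242, 352 and 291 CPM in CD44+ cells. In OG animals the order 3, 5, 6, 7 gave 80.2, 77.2, 65.5 and 70.6 CPM in CD44- cells and 283, 191, 184 and 189 CPM in CD44+ cells. OG CD44- lay far below every other library, and OG CD44+ lay below every R26 library except in animal 3. The rise from CD44- to CD44+ in OG animals was 2.89-fold (log2 1.53 ± 0.17, adjusted p = 7.93e-06) and was present in 4 of 4 animals. Without both libraries of animal 3 it was 1.40 (adjusted p = 1.77e-05).

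In R26 animals the same difference in Nfkbia was 0.36 ± 0.16 (adjusted p = 0.102). It was higher in CD44+ cells in 4 of 4 animals, and with the animal as a block it was called, firmly as a fixed term in edgeR (log2 0.36, adjusted p = 3.88e-05) and barely as a random block in limma voom (0.37, adjusted p = 0.0483). R26 animals 1 and 7 lay above animals 2 and 8 in both fractions. The value was also called when OG CD44+ animal 3 was left out (adjusted p = 0.0390) or both libraries of that animal (adjusted p = 0.0435). The interaction was 1.17 ± 0.24 (adjusted p = 0.00301), and 1.04 without animal 3 (adjusted p = 0.00281). OG CD44- was below R26 CD44- by a log2 fold change of -1.69 ± 0.17 (adjusted p = 1.15e-06), and OG CD44+ below R26 CD44+ by -0.52 ± 0.16 (adjusted p = 0.0125). The latter was -0.69 without OG animal 3 (adjusted p = 8.99e-04) and was not called without R26 CD44+ animal 7 (-0.43, adjusted p = 0.0551).

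Tnfaip3 (Entrez 21929, chr10:19000910-19015410, minus strand), the gene of A20, rose with Nfkbia. Its values in R26 animals 1, 2, 7 and 8 were 72.8, 55.6, 76.7 and 58.9 CPM in CD44- cells and 129.9, 82.7, 147 and 100.1 CPM in CD44+ cells. OG animals 3, 5, 6 and 7 had 45.9, 38.4, 41.8 and 38.0 CPM in CD44- cells and 186, 104, 106 and 99.9 CPM in CD44+ cells. The OG CD44- libraries were the lowest of all, and the CD44+ libraries of both prefixes overlapped. In OG animals CD44+ cells had 3.01-fold more Tnfaip3 than CD44- cells (log2 1.59 ± 0.23, adjusted p = 8.60e-05), and without animal 3 the difference was 1.38 (adjusted p = 1.58e-04).

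In R26 animals the gain in Tnfaip3 was 0.80 ± 0.23 (adjusted p = 0.0138). Leaving out R26 CD44- animal 8 or 2, or R26 CD44+ animal 7 or 1, gave 0.68, 0.65, 0.59 and 0.67, none of them called (adjusted p = 0.0551, 0.0581, 0.0675 and 0.0545). The interaction of 0.78 ± 0.32 was not called (adjusted p = 0.0971), but was with the animal as a fixed block in edgeR (0.77, adjusted p = 0.0123). As a random block in limma voom it was not (0.75, adjusted p = 0.0660), nor without animal 3 (0.58, adjusted p = 0.131). OG CD44- was below R26 CD44- by a log2 fold change of -0.68 ± 0.23 (adjusted p = 0.0195). Between the CD44+ groups the difference was 0.10 ± 0.22 with a 95% interval of -0.33 to 0.53, and it was -0.16 without animal 3 (adjusted p = 0.44).

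Fos and Atf3, immediate-early genes that rise quickly in stressed or dissociated cells, had the same order of group means as Nfkbia and were chosen after their values were seen. Fos averaged 1532 CPM in R26 CD44-, 1702 in R26 CD44+, 193 in OG CD44- and 418 in OG CD44+. Atf3 averaged 359, 452, 128 and 183 CPM, with 269 CPM in the OG CD44+ library of animal 3, the highest of its group. Their part in the Nfkbia and Tnfaip3 results was not tested. Leukocyte and fibroblast sums were also highest in that library, and their part was not tested either.

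**Figure D3:**
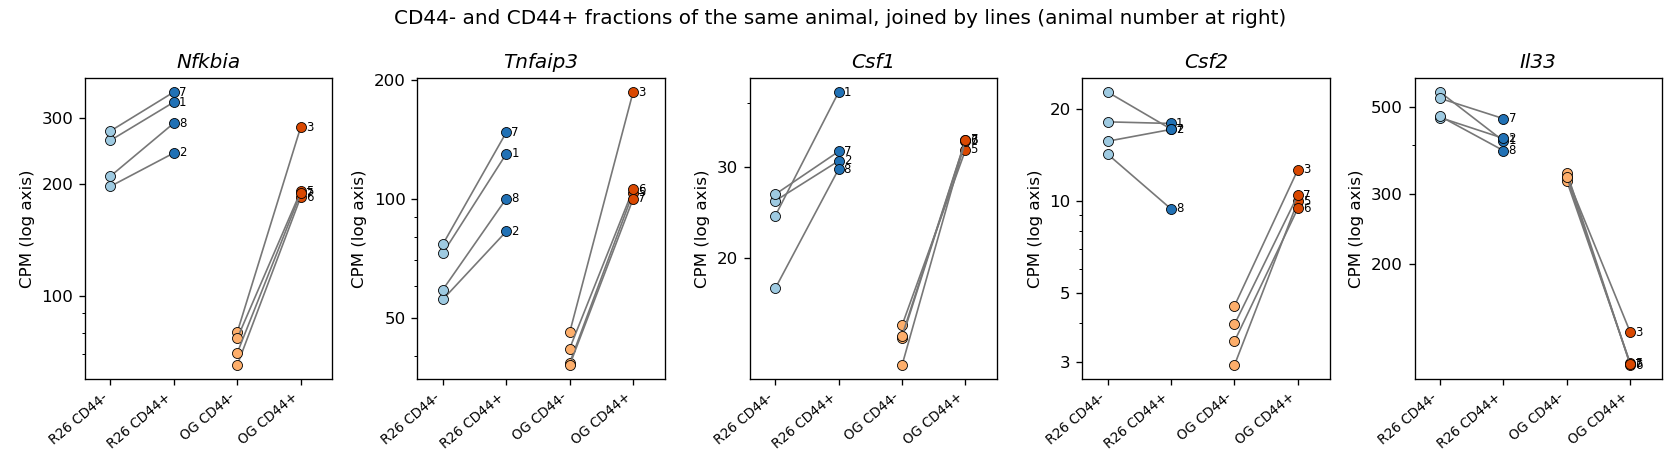
CPM (log axis) of Nfkbia, Tnfaip3, Csf1, Csf2 and Il33 in the CD44- and CD44+ fraction of each animal, joined by lines with the animal number at the right. The first 4 genes rise in 4 of 4 OG animals, and Il33 falls in 4 of 4.

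Among 28 other genes of the NF-kappaB core, namely subunits, kinases, adaptors, inhibitors and deubiquitinases, 7 were higher and 11 lower in OG CD44+ than in OG CD44- cells, with a median log2 difference of -0.10. In R26 animals 9 were higher and 1 was lower, with a median of 0.07. Counts for this and the later lists stand beside the shares called over all tested genes. These were 50.4% between OG fractions, 37.1% between R26 fractions, and 69.0% and 69.1% between prefixes in CD44- and CD44+ cells. Tnip3, an A20-binding inhibitor, rose in both (log2 1.65 ± 0.14 in OG and 2.31 ± 0.22 in R26, adjusted p = 3.38e-08 and 2.05e-07). Nfkbid, a nuclear IkappaB protein, rose between OG fractions (1.59 ± 0.24, adjusted p = 6.69e-06). Tax1bp1, an A20 adaptor, fell there (-0.35 ± 0.04, adjusted p = 5.51e-07). Traf1, a receptor adaptor, fell too (-0.93 ± 0.11, adjusted p = 1.47e-06), as did Ikbkg, the regulatory subunit of the IkappaB kinase (-0.61 ± 0.08, adjusted p = 1.79e-06).

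Between prefixes the core list split almost evenly. In CD44- cells 12 of the 28 were higher and 10 lower in OG, with a median of 0.01, and in CD44+ cells 9 were higher and 13 lower, with a median of -0.03. Traf3, an adaptor that restrains the non-canonical pathway, was higher in OG CD44- cells (log2 1.52 ± 0.08, adjusted p = 9.40e-15), and so was Ikbkg (1.44 ± 0.08, adjusted p = 6.08e-13). The deubiquitinase gene Cyld was also higher (0.83 ± 0.05, adjusted p = 1.85e-13), as were the A20 partners Tax1bp1 (0.70 ± 0.04, adjusted p = 7.88e-13) and Tnip1 (0.95 ± 0.06, adjusted p = 1.37e-12). Birc3, a ubiquitin ligase of the TNF receptor complex and a common NF-kappaB target, was lower in OG CD44- and OG CD44+ cells (-0.93 ± 0.07 and -1.31 ± 0.08, adjusted p = 4.06e-11 and 1.37e-13). Nfkbiz, of the same list, fell further, from 222 CPM in R26 CD44- to 31.3 CPM in OG CD44- cells (-2.83 ± 0.18, adjusted p = 6.74e-09). Mean levels of Nfkbid, Zc3h12a and Tnip2 were also lower, at 1.66, 11.0 and 7.22 CPM in OG CD44- against 11.1, 28.8 and 18.5 CPM in R26 CD44- cells. Those of Nfkbib and Tnip3 were higher, at 32.2 and 24.3 against 22.9 and 2.73 CPM.

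Of 21 receptors and adaptors upstream of NF-kappaB, 8 were higher and 6 lower in OG CD44+ than in OG CD44- cells, and in R26 animals 7 were higher and 5 lower. In OG CD44- against R26 CD44- cells 6 were higher and 6 lower, and in CD44+ cells 7 and 8. The Toll-like receptor gene Tlr2 was higher in OG CD44- than in R26 CD44- cells (log2 2.72 ± 0.16, adjusted p = 1.25e-13). Its level was low, at 8.65 and 1.31 CPM, and 12 of 15 leukocyte markers were also higher there. The part of leukocytes was not tested. Tnfrsf1b, a TNF receptor gene, was higher too (1.34 ± 0.08, adjusted p = 2.45e-12). The signalling receptor of interleukin-1, Il1r1, was lower, at 33.2 ± 0.977 CPM in OG CD44- against 84.0 ± 3.0 in R26 CD44- (SD, n = 4 each; log2 -1.34 ± 0.06, adjusted p = 4.19e-15).

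Of 22 known NF-kappaB target genes outside the 10, 21 were tested. In OG animals 10 were higher and 4 lower in CD44+ cells, with a median of 0.27, and in R26 animals 8 were higher and 3 lower, with a median of 0.17. Over all tested genes 22.3% were called higher and 28.0% lower between OG fractions, and 21.6% and 15.4% between R26 fractions. Tnf, the cytokine gene, rose in both (log2 2.67 ± 0.26 and 2.88 ± 0.32, adjusted p = 1.26e-08 and 1.30e-07). Its level was low, at 1.02 and 6.59 CPM in the OG fractions and 0.487 and 3.54 CPM in the R26 fractions (CD44- first). Leukocyte sums also rose between these fractions, and the part of leukocytes was not tested. Gadd45b, a stress response gene, rose between OG fractions (0.77 ± 0.08, adjusted p = 3.45e-08), as did F3, the tissue factor gene (0.99 ± 0.09, adjusted p = 5.32e-08). Between prefixes 8 were higher and 11 lower in OG in each fraction, with medians of -0.21 in CD44- and -0.31 in CD44+ cells. In CD44- cells F3 was higher in OG (2.22 ± 0.10, adjusted p = 4.16e-13), and so were the adhesion gene Icam1 (0.70 ± 0.05, adjusted p = 6.37e-12) and the survival gene Bcl2l1 (0.44 ± 0.05, adjusted p = 3.11e-08). By contrast, Gadd45b, Cebpd and Irf1 were lower (-1.16 ± 0.08, -2.09 ± 0.10 and -1.62 ± 0.13, adjusted p = 3.57e-12, 2.67e-12 and 7.80e-08).

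Il33 (Entrez 77125, chr19:29925113-29960718, plus strand), the alarmin gene, decreased in a staircase over the 4 groups. R26 animals 1, 2, 7 and 8 had 544, 469, 525 and 473 CPM in CD44- cells and 409, 416, 466 and 387 CPM in CD44+ cells. The OG libraries of animals 3, 5, 6 and 7 had 332, 324, 341 and 331 CPM in CD44- cells and 134, 112, 111 and 111 CPM in CD44+ cells. No neighbouring groups in this order overlapped. The fall from CD44- to CD44+ was a log2 fold change of -0.26 ± 0.06 in R26 animals (adjusted p = 0.00216) and -1.5 ± 0.07 in OG animals (adjusted p = 4.12e-14), in 4 of 4 animals each. The difference between these effects was -1.24 ± 0.09 (adjusted p = 1.08e-09). OG was below R26 by -0.60 ± 0.06 in CD44- cells (adjusted p = 1.26e-08) and by -1.84 ± 0.07 in CD44+ cells (adjusted p = 3.20e-17). OG CD44+ animal 3 stood above the other 3, and without that animal the fall between OG fractions was -1.58, the difference in CD44+ cells -1.91 and the interaction -1.31.

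Between fractions, Il33 went with the AT2 sums and against the leukocyte, fibroblast and airway marker sums in both prefixes. The endothelial sums ran from 139 to 162 and 212 to 236 CPM in the R26 fractions and from 193 to 203 and 118 to 131 CPM in the OG fractions, CD44- first, so between OG fractions they fell with Il33, as did the macrophage sums (77.9 to 83.7 and 55.0 to 69.9 CPM). The part of cell composition was not tested. The 13 airway markers summed to 578 to 1211 and 1828 to 3363 CPM in the R26 fractions and to 688 to 817 and 1989.9 to 2729.9 CPM in the OG fractions, CD44- first. All 11 AT2 markers were lower in CD44+ than in CD44- cells in both R26 and OG animals, with median log2 differences of -0.55 and -0.98. Per kilobase, Il33 stood at 198 CPM in R26 CD44- cells, above Nfkbia at 149.6, and at 46.0 CPM in OG CD44+ cells, below Nfkbia at 134. The gene of its receptor, Il1rl1, did not pass the low-count filter, with 6 and 16 counts in the R26 fractions (CD44- first) and 22 and 48 in the OG fractions.

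Il18 (Entrez 16173, chr9:50554700-50581841, plus strand) and Il1rn (Entrez 16181, chr2:24336860-24351491, plus strand) were close to the limit of detection. A floor of 3 counts is worth 0.134 to 0.356 CPM, depending on the library. Il18 gave 147 counts in the 16 libraries together: 5, 3, 6 and 9 in CD44- and 4, 2, 10 and 4 in CD44+ cells of R26 animals 1, 2, 7 and 8. OG animals 3, 5, 6 and 7 gave 12, 9, 14 and 11 in CD44- and 11, 17, 10 and 20 in CD44+ cells. Group means were 0.407 ± 0.136, 0.472 ± 0.291, 0.697 ± 0.0523 and 1.12 ± 0.326 CPM (SD, n = 4), with the R26 fractions before the OG fractions and CD44- before CD44+.

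Il18 was higher in OG than in R26 CD44+ cells (log2 1.20 ± 0.41, adjusted p = 0.0119), and not called without OG CD44+ animal 7 (1.01, adjusted p = 0.0515). In CD44- cells the difference was 0.72 ± 0.41 (adjusted p = 0.118). Between fractions it was 0.69 ± 0.35 in OG (adjusted p = 0.108) and 0.22 ± 0.47 in R26 animals (adjusted p = 0.742). At this depth the R26 interval of -0.69 to 1.14 does not separate a fall from a rise. The locus overlaps the antisense genes Bco2 and Tex12. Its receptor gene Il18r1 was far more abundant, at 174 ± 2.26, 173 ± 12.1, 137 ± 6.50 and 190 ± 9.59 CPM in the order of the groups above. It rose between OG fractions (0.48 ± 0.05, adjusted p = 6.57e-08). Il18bp, the secreted inhibitor of interleukin-18, was higher in OG in CD44- and CD44+ cells (0.70 ± 0.13 and 0.61 ± 0.14, adjusted p = 5.73e-05 and 4.60e-04). Casp1, the processing enzyme, did not pass the low-count filter, with 10, 34, 9 and 25 counts per group.

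Il1rn had 0 counts in all 4 R26 CD44- libraries, and 7, 2, 13 and 0 counts in the CD44+ cells of R26 animals 1, 2, 7 and 8. OG animals 3, 5, 6 and 7 had 9, 10, 19 and 18 counts in the CD44- fraction and 19, 19, 14 and 27 counts in the CD44+ fraction. The gene was thus detected in all 8 OG libraries and in 3 of 8 R26 libraries. Against a floor of 3 counts over the R26 CD44- group, which is 0.0544 CPM, Il1rn was at least 9.89-fold higher in R26 CD44+ cells (adjusted p = 0.00102) and at least 15.4-fold higher in OG CD44- cells (adjusted p = 3.02e-05). R26 CD44+ animal 7 held 13 of the 22 counts of its group, and without it the first bound was 5.57-fold. OG CD44+ exceeded R26 CD44+ cells by 1.51 ± 0.52 on the log2 scale (adjusted p = 0.0143), and by 2.33 without R26 CD44+ animal 7 (adjusted p = 0.00156). Between OG fractions the difference of 0.86 ± 0.45 was not called (adjusted p = 0.119), but was with the animal as a fixed block in edgeR (0.86, adjusted p = 0.0380) and as a random block in limma voom (0.88, adjusted p = 0.0435). The interaction passed (adjusted p = 0.0156), but its size rests on the group at 0 and is no estimate.

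Markers of neutrophils, mast cells and basophils, which can carry Il1rn, summed to 0.194 to 0.402 CPM in R26 CD44-, 0.987 to 3.46 in R26 CD44+, 0.668 to 1.27 in OG CD44- and 6.43 to 8.64 in OG CD44+. S100a9 was at 0 in all R26 libraries. Of 12 macrophage and monocyte markers tested, 8 were higher and 2 lower in OG than in R26 CD44- cells (median log2 3.47). In CD44+ cells 5 were higher and 3 lower in OG (median 0.73). Between R26 fractions 6 were higher and 0 lower in CD44+ cells, and between OG fractions 1 was higher and 2 were lower. The part of any of these cells in the Il1rn result was not tested.

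Of 25 other genes of the interleukin-1 family, its receptors and the inflammasome, 24 were in the table and 14 were tested. In OG animals 6 were higher and 1 lower in CD44+ cells (median 0.46), and in R26 animals 6 were higher and 2 lower (median 0.43). OG against R26 gave 6 higher and 6 lower in CD44- cells (median 0.25) and 3 higher and 4 lower in CD44+ cells (median -0.01). Il1b averaged 0.0782 CPM in R26 CD44-, 6.32 in R26 CD44+, 1.04 in OG CD44- and 4.91 in OG CD44+. It is a cytokine gene of myeloid cells, and leukocyte sums moved with it between fractions, whose part was not tested. Il1f9, which encodes the epithelial cytokine interleukin-36 gamma, was higher in OG than in R26 CD44- cells (log2 6.15 ± 0.47, adjusted p = 2.74e-11) and CD44+ cells (3.18 ± 0.39, adjusted p = 1.18e-07). Il1f9 had 4 and 17 counts in the R26 fractions and 393 and 197 in the OG fractions (CD44- first). The R26 levels were thus near the floor, and the sizes of these changes are uncertain. Gsdmd, the pore-forming effector of pyroptosis, was lower in OG in both (-1.15 ± 0.13 and -0.82 ± 0.13, adjusted p = 2.21e-08 and 6.36e-06).

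Csf1 (Entrez 12977, chr3:107741048-107760469, minus strand), the gene of M-CSF, was lowest in OG CD44- and about equally high in the CD44+ cells of both prefixes. R26 animals 1, 2, 7 and 8 had 24.1, 25.8, 26.6 and 17.4 CPM in CD44- cells and 42.0, 30.9, 32.2 and 29.8 CPM in CD44+ cells. OG animals 3, 5, 6 and 7 had 14, 14.8, 12.4 and 14.1 CPM in CD44- cells and 33.9, 32.4, 33.8 and 33.9 CPM in CD44+ cells. The fractions did not overlap within either prefix, and the CD44+ libraries of R26 and OG animals did. CD44+ cells had 2.44-fold more Csf1 than CD44- cells in OG animals (log2 1.29 ± 0.12, adjusted p = 1.07e-08) and 1.44-fold more in R26 animals (0.53 ± 0.11, adjusted p = 8.49e-04).

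The R26 value for Csf1 came down to 0.33 without R26 CD44- animal 8 (adjusted p = 0.00902) and to 0.34 without R26 CD44+ animal 1 (adjusted p = 0.0137). The interaction was 0.76 ± 0.16 (adjusted p = 0.00156). OG CD44- was below R26 CD44- (-0.77 ± 0.12, adjusted p = 5.81e-06). Between the CD44+ groups the difference was -0.01 ± 0.11, with a 95% interval of -0.23 to 0.21. Il34, the other ligand of the M-CSF receptor, fell where Csf1 rose, from 32.3 ± 1.47 to 23.3 ± 1.91 CPM between OG fractions (SD, n = 4 each; log2 -0.48 ± 0.07, adjusted p = 5.10e-06). In R26 animals its change was -0.19 ± 0.07 (adjusted p = 0.0337).

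Csf2 (Entrez 12981, chr11:54247270-54249899, minus strand), the gene of GM-CSF, had the deepest drop in OG CD44- cells of the members with counts in all libraries. In R26 animals 1, 2, 7 and 8 it had 18.1, 15.7, 22.6 and 14.2 CPM in CD44- cells and 17.9, 17.1, 17.1 and 9.42 CPM in CD44+ cells. In OG animals 3, 5, 6 and 7 it had 4.56, 2.92, 3.5 and 3.97 CPM in CD44- cells and 12.7, 9.99, 9.47 and 10.5 CPM in CD44+ cells. The R26 fractions overlapped, the OG fractions did not, and no OG CD44- library came near any other group. OG CD44- was below R26 CD44- by a log2 fold change of -2.23 ± 0.19 (adjusted p = 2.28e-09), a ratio of 0.213.

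Csf2 was 2.82-fold higher in CD44+ than in CD44- cells of OG animals (log2 1.5 ± 0.20, adjusted p = 3.98e-06), in 4 of 4 animals. In R26 animals the difference was -0.20 ± 0.17 with a 95% interval of -0.54 to 0.14, and the interaction was 1.70 ± 0.27 (adjusted p = 9.04e-05). OG CD44+ remained below R26 CD44+ (-0.53 ± 0.18, adjusted p = 0.0140). That call was lost without R26 CD44+ animal 7, 2 or 1 (-0.45, -0.46 and -0.44, adjusted p = 0.0571, 0.0535 and 0.0607). R26 CD44+ animal 8, at 9.42 CPM, was the lowest of its group and lay just below the lowest OG CD44+ library.

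**Figure D4:**
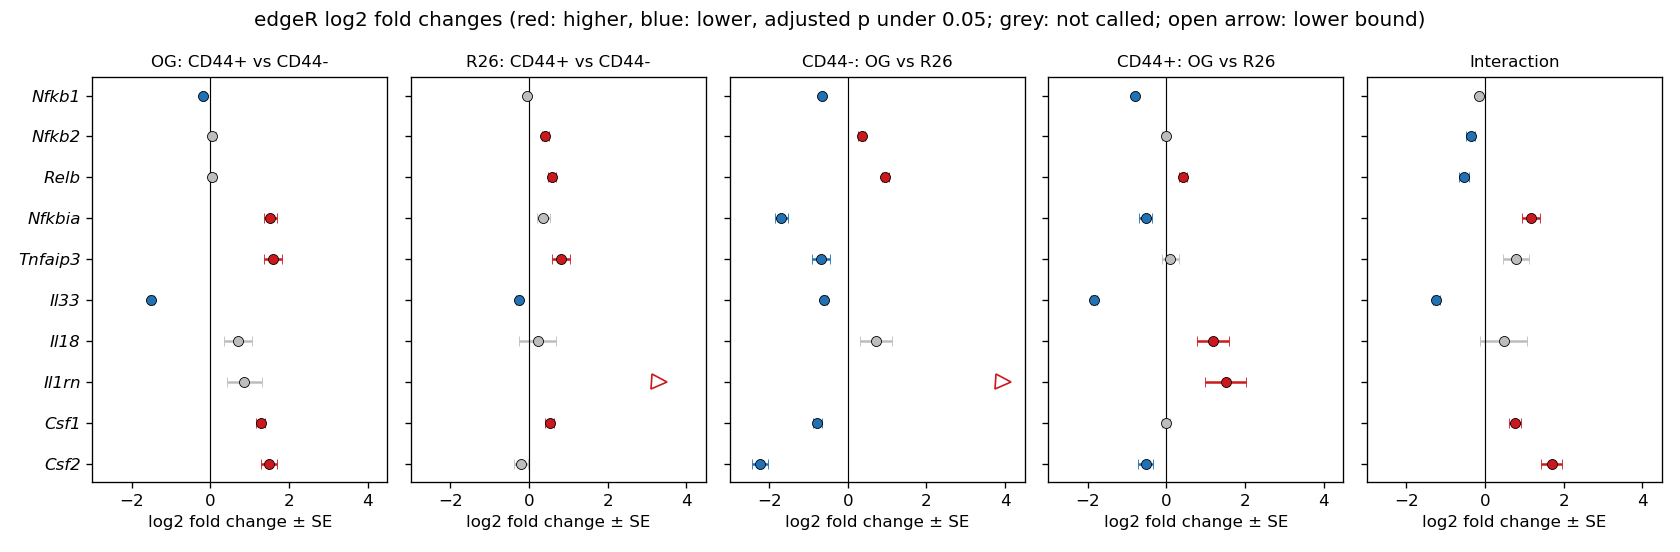
Log2 fold changes with SE from edgeR for the 10 genes in the 5 comparisons (red higher, blue lower, grey not called). Open arrows mark Il1rn against the group with 0 counts, drawn at its lower bound, and Il1rn is left out of the interaction panel.

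Of 11 other genes of the colony stimulating factor system, 7 were tested. In OG animals 2 were higher and 2 lower in CD44+ cells (median 0.20), and in R26 animals 5 were higher and 1 lower (median 1.42). OG against R26 gave 2 higher and 1 lower in CD44- cells and 0 higher and 5 lower in CD44+ cells (medians -0.05 and -0.61). Kitl, the stem cell factor gene, rose from CD44- to CD44+ cells in OG and R26 animals (log2 1.18 ± 0.15 and 1.42 ± 0.16, adjusted p = 6.73e-07 and 1.35e-07). Csf1r, the M-CSF receptor gene of macrophages, averaged 7.71 ± 1.41 CPM in R26 CD44-, 23.3 ± 2.34 in R26 CD44+, 7.43 ± 0.960 in OG CD44- and 6.13 ± 1.19 in OG CD44+ (SD, n = 4). It rose between R26 fractions (log2 1.60 ± 0.14, adjusted p = 3.18e-09), and in OG animals its difference was -0.29 ± 0.15 (adjusted p = 0.116). Sums of the 14 macrophage markers ran from 45.5 to 53.0, 66.1 to 87.9, 77.9 to 83.7 and 55.0 to 69.9 CPM in that order of groups. They include Csf1r itself, so they are not independent of its values. The part of macrophages in the receptor values was not tested.

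Csf2rb, the signalling chain of the GM-CSF receptor, averaged 3.87, 11.7, 2.82 and 4.20 CPM, and the ligand-binding chain gene Csf2ra averaged 16.4, 13.9, 15.8 and 12.3 CPM. Csf2rb rose between R26 fractions (log2 1.60 ± 0.23, adjusted p = 9.43e-06), and in OG animals its difference was 0.57 ± 0.25 (adjusted p = 0.0659). Csf2ra fell between OG fractions (-0.36 ± 0.12, adjusted p = 0.0138).

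The genes whose levels ran most like each member over the 16 libraries were searched among 7280 named genes with a mean log2 CPM of at least 4. Pearson's r is a description here, since the libraries share animals, groups and scaling. Nfkb1 was most like Zcchc14 and Stat3 (r = 0.99 each), Nfkb2 like Tle3 and Thbs1 (0.94 and 0.92), and Relb like Map7d1 and Pofut1 (0.97 each). Nfkbia was most like Zfp36l1 and Rhob (0.97 and 0.96), and Tnfaip3 like Nlgn2 and Trib1 (0.94 and 0.93). Il33 was most like Antxr1 and Pde7b (0.99 each), Il18 like Eif4a1 and Ptdss1 (0.93 and 0.90), and Il1rn like Plekhm3 and Rrm1 (0.96 and 0.95). Csf1 was most like Smad7 and Ifitm2 (0.97 and 0.94), and Csf2 like Fzd3 and Gadd45b (0.97 and 0.96). Stat3, a transcription factor of cytokine signalling, averaged 437 and 414 CPM in the R26 fractions and 286 and 239.9 CPM in the OG fractions (CD44- first). It was picked by its r with Nfkb1, so the order of groups that they share is no separate result.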

How the data were processed

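The authors deposited raw read counts per Entrez gene for 16 libraries, from a kit that keeps strand and removes ribosomal RNA, per the labels' protocols. The submitters' processing notes name Bowtie2 and mm10, with no version; the counting program, annotation and strand setting were not given in the sources used here. Of 27179 identifiers, 25275 (93.0%) matched a symbol in RefSeq, and 1 unmatched identifier held 7.32% of the counts.

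Counts were filtered (filterByExpr), scaled by TMM and tested with edgeR 4.0.16 (R 4.3.3) by its quasi-likelihood test, with 1 mean per group over all 16 libraries. Adjusted p values are Benjamini-Hochberg over 15516 genes, called under 0.05 with no fold minimum. CPM are counts per 1000000 of the effective library size. SE is the fold change divided by the root of F, and 95% intervals are 1.96 SE. p values rest on the spread between the 4 libraries within each group, estimated over all 16 libraries. The main fit does not use the pairing of CD44- and CD44+ fractions by animal. The script was tested on simulated data.

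Animal numbers in the column names and titles pair the fractions, as the number names the animal. Same-animal deviations correlated at 0.232 to 0.465 in R26 and at 0.0111 to 0.273 in OG animals (7467 genes; animal 6 lowest and not its own best match). Blocked values are given where they change a call.

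Genes named were the 10, called genes among the 6 with the smallest adjusted p per pathway list and comparison (not always all 6), genes that bind or process a member, and the 2 most similar per member. Nfkbiz and the core list genes given by mean level in CD44- cells were added after their values were seen. Members and lists were chosen with earlier results of these data known. Alternatives were RLE and upper quartile scaling, DESeq2 1.42.0, limma 3.58.1 with voom weights, other filters, only the libraries compared, an animal block, and each library left out. Leaving out both libraries of OG animal 3 was added after seeing the data.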

Additional observations from a re-analysis of the deposited data

Results flagged for a closer look

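In 6 of the 40 combinations of gene and group, the highest or lowest library lay far from the other 3; chance alone gives about 1 in 20. The libraries of OG animal 3 account for 4 of them: Nfkb2 in OG CD44- at 132 CPM, and Nfkbia at 283, Tnfaip3 at 186 and Il33 at 134 CPM in OG CD44+. The other cases were Csf1 in OG CD44+ animal 5, low at 32.4 CPM in a very tight group, and Csf2 in R26 CD44+ animal 8, low at 9.42 CPM.

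The CD44 effect differed between OG and R26 animals by edgeR's interaction term for 7 genes. The differences on the log2 scale, OG minus R26, were 1.17 for Nfkbia, 0.76 for Csf1 and 1.70 for Csf2. They were -0.37 for Nfkb2, -0.54 for Relb and -1.24 for Il33. The fitted value for Il1rn was -5.00, which rests on a group with 0 counts.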

How the results depend on the processing

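Of 1257 single values of the 10 genes under alternatives, 1212 stayed on their side of the threshold, 28 lost their call, 17 gained one, and no called value changed sign. All 254 counts of calls stayed within 1.5 times the reported ones. Members called ranged from 5 to 9 between OG fractions, 5 to 7 between R26 fractions, 8 to 9 in CD44- cells, 5 to 7 in CD44+ cells and 5 to 8 for the interaction. Gains not given above were, between OG fractions, Il18 and Il1rn with voom weights (adjusted p = 0.0347 and 0.0213) and Nfkb2, Il18 and Il1rn when only the 8 libraries compared were fitted (adjusted p = 0.0403, 0.0409 and 0.0114). Il1rn was also gained there without R26 CD44+ animal 8 (adjusted p = 0.0474), and the Tnfaip3 interaction with DESeq2 (0.86, adjusted p = 0.0442) and without R26 CD44+ animal 7 (1.05, adjusted p = 0.0384). The cause of these changes was not tested. Scaling moved the direction of calls over all genes: between OG fractions 44.3% were higher with TMM and 57.2% with upper quartile scaling, between R26 fractions 58.4% and 48.0% with RLE, and in the interaction 26.6% and 39.1% with RLE. With the animal as a fixed block in edgeR, 8573 genes were called between OG fractions against 7815 without it, and 6598 against 5750 between R26 fractions; beyond the Nfkbia, Tnfaip3 and Il1rn values given above, it changed no other member's call. As a random block in limma voom the animal changed the Nfkbia and Il1rn calls only, and not that of the Tnfaip3 interaction. The fixed block could not be fitted for OG against R26, where animals lie within a prefix. The random block could, and it called 9 members in CD44- cells and 7 in CD44+ cells, as the main fit did. The filter of 50 counts dropped Il18 and Il1rn, and the interaction cannot be fitted on 8 libraries. Depth limits Il18 and Il1rn most.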
